A study of Mus musculus with 35 samples.

Results

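The genes described are 8 mouse genes of sterol synthesis and its feedback control: Hmgcs1, Idi1, Fdft1, Sqle, Lss, Cyp51, Insig1 and Srebf2. They were chosen by name, as the rows of the deposited expression table whose symbol equals a listed gene, without using measured values. All 8 were found among 14174 rows, and all 8 passed the filter on low values that left 14157 genes to test. The study sequenced RNA from 35 mouse aortas in as many libraries, to compare 3 genotypes on 2 diets for 2 durations. The resulting 12 groups held 3 libraries each, except EKO/hA-I on chow at 6 weeks with 2.

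EKO/hA-I mice lack apolipoprotein E (APOE), a ligand for hepatic clearance of remnant lipoproteins, and overexpress human apoA-I, which forms the bulk of high-density lipoprotein protein. EKO mice lack APOE without the transgene, and WT mice are wild type. All were labelled C57BL/6 and were 8 weeks old when they were put on Western diet (WD) or regular chow. The diets lasted 22 weeks, to an age of 30 weeks, or 6 weeks, to an age of 14 weeks, so duration and age cannot be told apart. The promoter that drives the transgene is not given in the sources used here. Per the labels, the vessel was flushed of blood and stripped of surrounding fat before freezing.

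Cholesterol is made from acetyl-CoA through mevalonate, isoprenoid units, squalene and lanosterol, and the 6 enzymes described act at steps along that path. SREBP-2, encoded by Srebf2, is a transcription factor held in the endoplasmic reticulum. When membrane sterols run low it is carried to the Golgi by SCAP and cut by the site-1 and site-2 proteases, and its free end switches on genes of sterol synthesis. INSIG-1 holds the SCAP complex back when sterols are plentiful and is itself encoded by an SREBP target gene. In atherosclerotic vessels the pathway is studied because cells that take up lipoprotein cholesterol are known to lower their own synthesis.

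Control of these genes runs through their promoters, so the windows from 250 bases before to 50 bases after the transcription start are shown for an early enzyme (Hmgcs1), an isoprenoid enzyme (Idi1), the retention protein (Insig1) and the transcription factor (Srebf2). The sequences are RefSeq's, on build GRCm38.p6, read 5′ to 3′ on the gene's strand, and 6 of the 8 genes matched the RefSeq promoter table. Capitals mark the sterol regulatory element (SRE) TCACNCCAC or its short form TCACNCCA, and the NF-Y box CCAAT, on either strand. The short form is contained in the longer one, so every SRE match also counts for the short form.
Hmgcs1 (chr13:119690101-119690400, plus strand): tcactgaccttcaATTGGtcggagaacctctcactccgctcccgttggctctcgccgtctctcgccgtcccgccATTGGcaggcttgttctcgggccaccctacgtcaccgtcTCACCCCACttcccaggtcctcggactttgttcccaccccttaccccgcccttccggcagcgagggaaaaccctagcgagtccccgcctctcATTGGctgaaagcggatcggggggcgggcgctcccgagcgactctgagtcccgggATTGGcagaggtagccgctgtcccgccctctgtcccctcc
Idi1 (chr13:8885356-8885655, plus strand): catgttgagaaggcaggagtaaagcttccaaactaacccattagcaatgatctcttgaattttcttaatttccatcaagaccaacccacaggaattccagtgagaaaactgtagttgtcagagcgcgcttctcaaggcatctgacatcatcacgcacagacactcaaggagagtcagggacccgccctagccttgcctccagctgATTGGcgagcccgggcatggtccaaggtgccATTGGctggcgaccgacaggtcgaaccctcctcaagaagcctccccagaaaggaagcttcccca
Insig1 (chr5:28071162-28071461, plus strand): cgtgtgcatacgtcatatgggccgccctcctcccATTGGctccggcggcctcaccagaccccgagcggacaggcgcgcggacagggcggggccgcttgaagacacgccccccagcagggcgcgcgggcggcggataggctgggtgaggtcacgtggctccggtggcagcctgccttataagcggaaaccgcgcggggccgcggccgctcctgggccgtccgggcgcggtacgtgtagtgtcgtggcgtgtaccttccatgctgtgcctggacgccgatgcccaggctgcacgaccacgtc
Srebf2 (chr15:82147019-82147318, plus strand): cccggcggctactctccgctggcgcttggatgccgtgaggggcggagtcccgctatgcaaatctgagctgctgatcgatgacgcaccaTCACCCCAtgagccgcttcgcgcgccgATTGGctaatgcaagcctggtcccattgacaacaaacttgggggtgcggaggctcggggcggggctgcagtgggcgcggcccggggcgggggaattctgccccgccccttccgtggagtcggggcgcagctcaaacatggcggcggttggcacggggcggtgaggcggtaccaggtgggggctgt

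The longer SRE occurred in the Hmgcs1 window, from -137 to -129 relative to the start, and in 1.24% of all 32851 promoter windows of the same length. The short form also occurred in the Srebf2 window, from -162 to -155, and in 4.36% of all windows. An NF-Y box was found in 6 of 6 windows, those of Hmgcs1, Idi1, Lss, Cyp51, Insig1 and Srebf2, against 37.4% of all windows. The Sp1 box GGGCGG was likewise in 6 of 6 windows, against 35.7% of all. Only the Insig1 window among them held the E box CACGTG, which 7.15% of all windows held. These matches describe letters in the windows and do not show binding.

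Values are the authors' normalised signal, which is not scaled to gene length, so levels are compared between libraries and not between genes. The library columns summed to between 907500 and 1137700, and the spacing of low values corresponded to an estimated 6860000 to 25330000 reads per library. The deeper libraries carry less counting error, and the fewest estimated reads behind any value of the 8 genes were 107, for Sqle. Apoe had values of 5.37 to 29.7 in the 23 libraries labelled EKO or EKO/hA-I and of 416 to 1276 in the 12 WT libraries. For WT WD 22 weeks replicate 3, a library tagged as EKO but titled WT, the title was followed, and its Apoe value was 540. Y-linked transcripts had a mean value of 0.045 to 1.33 in 12 libraries, as in female tissue, and of 38.2 to 86.7 in the other 23. Only EKO/hA-I on chow at 22 weeks held no such low library, with a mean log2 of 5.37 to 5.64. In EKO mice on chow at 22 weeks it was 0.11 to 5.42, with a group mean of 2.00. The other groups of 3 libraries that held a low library had group means of 3.58 to 3.88. The sexes were thus not balanced over the groups. Smooth muscle and endothelial markers were present throughout, with Myh11 at 1086 to 10220 and Cdh5 at 145 to 381. Brown adipocyte markers were present too, with Ucp1 at 603 to 9750, and 0 of their 11 measured genes were at 0 in any library. In whole aortas, fewer cells of a type and less RNA per cell cannot be told apart.

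Across 28 comparisons, 6 of 224 gene values passed an adjusted p of 0.05, in 5 comparisons and for 3 genes, Fdft1, Insig1 and Idi1. The test was limma on log2(value + 1), two-sided, in 1 fit of all 12 groups, with Benjamini-Hochberg adjustment over all genes tested. The p-values reflect no more than the spread among these libraries. Many comparisons share groups, and their results are given side by side and not as independent evidence.

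**Figure D1:**
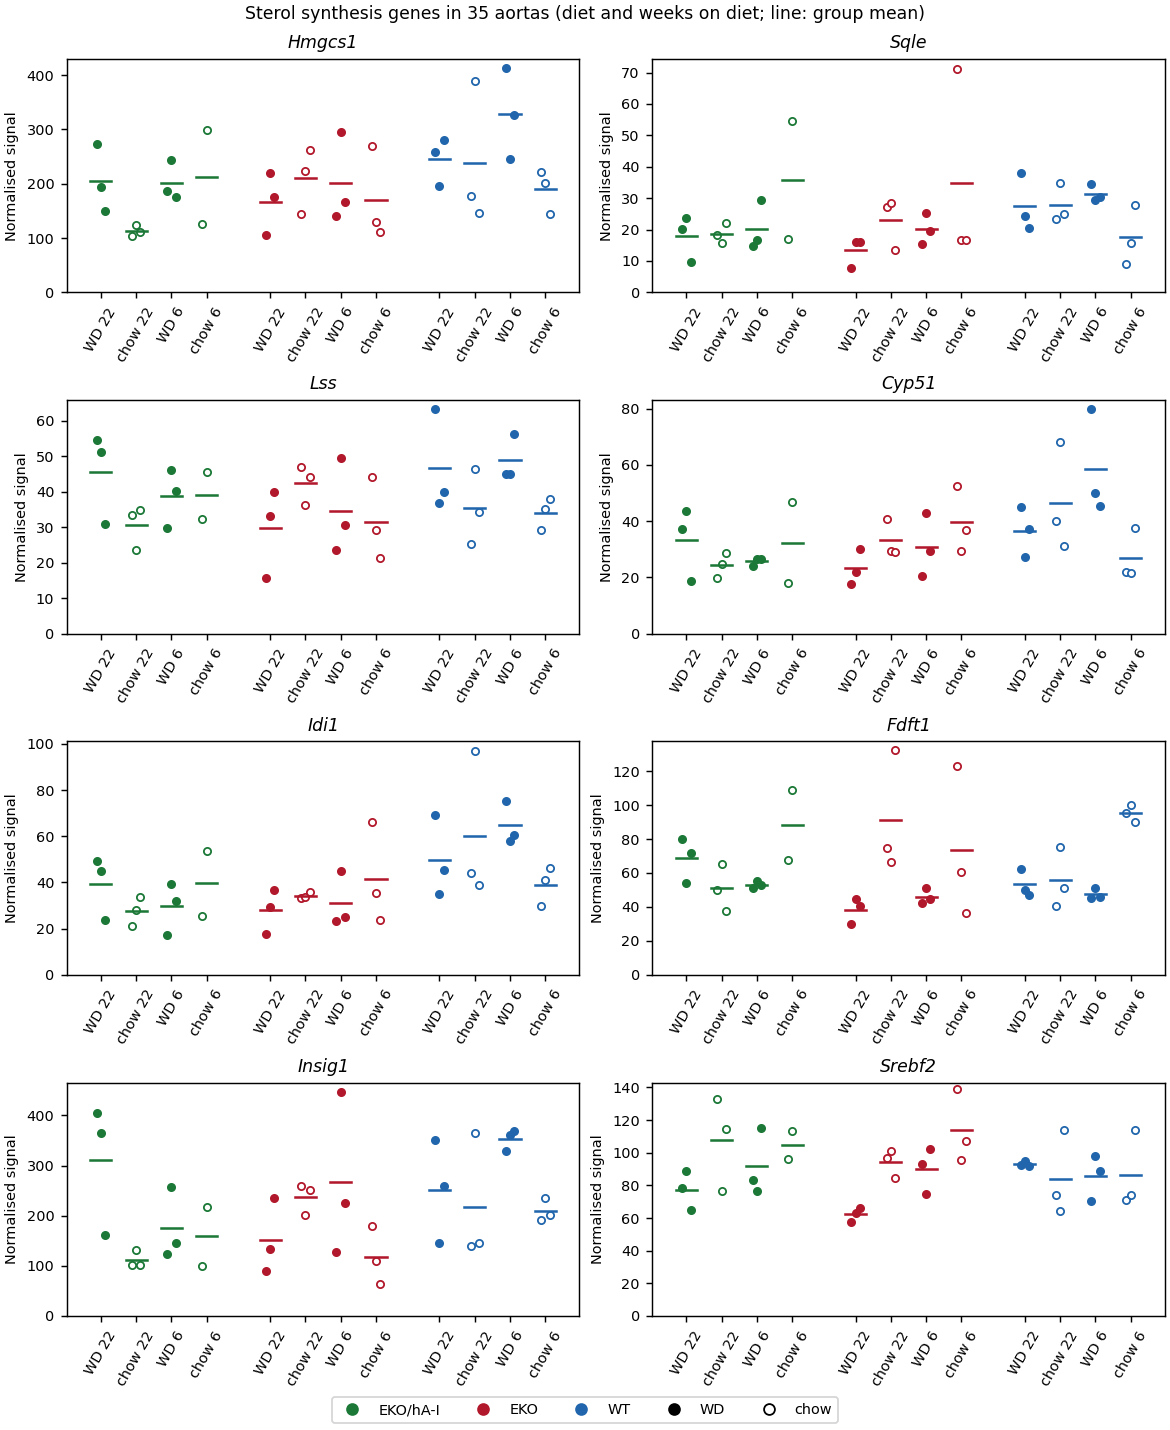
Normalised signal of each gene (y axis) in the 12 groups (x axis: diet and weeks on diet), with 1 point per aorta and a line at the group mean. EKO/hA-I is green, EKO red and WT blue, with WD filled and chow open. The Fdft1 panel shows EKO aortas on WD at 22 weeks at 29.6 to 44.9, all below EKO aortas on chow at 66.4 to 132.

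Within EKO mice at 22 weeks, Fdft1 was lower on WD. It encodes squalene synthase, the enzyme that commits isoprenoids to sterols. Its values were 29.6, 44.9 and 40.4 on WD, against 74.7, 66.4 and 132 on chow. The groups did not overlap, and the chow aorta at 132 was the highest of all 35 libraries. Fdft1 fell by 1.18 ± 0.30 on the log2 scale (SE; adjusted p = 0.0071). It was 1 of 8 genes called, where 18.7% of all genes were called. The call was lost without EKO chow 22 weeks replicate 3 (-0.88, adjusted p = 0.072) and without EKO WD 22 weeks replicate 1 (-1.01, adjusted p = 0.058). Macrophage markers moved too, with 12 of 12 called higher on WD and a summed signal of 10560 to 17970 on WD and 1706 to 2593 on chow. White adipocyte markers were called lower for 4 of 9, with sums of 5942 to 7585 on WD and 10170 to 16520 on chow. No marker of either list was at 0 in any library, and the part of these tissues in the Fdft1 difference was not tested.

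The other 7 genes in EKO mice at 22 weeks also had log2 differences below 0 for WD against chow, from -0.74 for Insig1 to -0.34 for Idi1, and none of the 7 passed. Their median with Fdft1 was -0.59, beside a median of 0.024 over all genes tested. Srebf2 had 57.9, 63.2 and 65.9 on WD, against 97.0, 101 and 84.8 on chow. The groups did not overlap, and the log2 difference of -0.59 ± 0.22 had an adjusted p of 0.058. With rescaling of the libraries by median ratios it was -0.61, with an adjusted p of 0.044, so this value lies at the threshold. The brown adipocyte markers had sums of 1565 to 5818 on WD and 4681 to 8652 on chow, and 0 of 11 were called. With their term Hmgcs1 was at 0.19, Idi1 at 0.0064 and Insig1 at -0.21, so the shared direction did not hold. Under it Fdft1 kept its call at -0.94 (adjusted p = 0.024), and Srebf2 passed at -0.80 (adjusted p = 0.0045). Contractile smooth muscle markers had sums of 6219 to 10810 on WD and 11680 to 16180 on chow, and their part in the Srebf2 difference was not tested. Groups that did not overlap were seen for 2 of the 8 genes, against 37.0% of all genes.

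In EKO/hA-I mice at 22 weeks the diet difference ran the other way for Insig1. It had 405, 365 and 161 on WD, against 102, 131 and 101 on chow. Every WD aorta was above every chow aorta, and the aorta at 161 lay closest to the chow group. Insig1 rose by 1.37 ± 0.46 on the log2 scale, or 2.59-fold (adjusted p = 0.022). It was 1 of 8 genes called, where 38.2% of all genes were called. Hmgcs1, which encodes the cytosolic synthase that makes HMG-CoA, had 273, 195 and 149 on WD, against 104, 123 and 112 on chow. Groups did not overlap for these 2 of the 8 genes, against 51.6% of all genes. For Hmgcs1 the log2 difference of 0.82 ± 0.38 did not pass (adjusted p = 0.094). The other genes of this comparison had log2 differences between -0.45 for Srebf2 and 0.54 for Lss.

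Markers of several tissues moved with the Insig1 difference. Of 11 brown adipocyte markers, 9 were called higher on WD in EKO/hA-I mice at 22 weeks, and their summed signal was 6861 to 8566 on WD and 1863 to 2361 on chow. With the mean log2 of these markers as a term in the fit, the Insig1 difference was 0.16 ± 0.48 (adjusted p = 0.91) and that of Hmgcs1 was -0.42 ± 0.32 (adjusted p = 0.55). The Insig1 call was also lost when any of 4 of the 6 libraries was left out, with log2 differences of 1.13 to 1.31 and adjusted p of 0.060 to 0.099. Those libraries were EKO/hA-I WD 22 weeks replicates 1 and 2 and EKO/hA-I chow 22 weeks replicates 1 and 3. The direction held in each of these refits without a library. Skeletal muscle markers were called higher for 10 of 10, with sums of 955 to 3308 on WD and 13.1 to 46.1 on chow. Contractile smooth muscle markers were called lower for 9 of 10, with sums of 4228 to 10420 on WD and 23780 to 35910 on chow. With brown adipocyte, Schwann cell and skeletal muscle terms together Insig1 was at -0.52, on the other side of 0, and was not called. White adipocyte markers were called higher for 6 of 9 (sums of 11060 to 13450 on WD and 3044 to 5865 on chow) and macrophage markers for 9 of 12 (1063 to 2653 on WD and 498 to 698 on chow). The part of white adipocytes, macrophages and smooth muscle was not tested.

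The diet response at 22 weeks was compared between EKO/hA-I and EKO mice as a difference of differences. It was positive for 8 of 8 genes, with a median of 1.00, beside -0.057 over all genes tested. Fdft1 passed at 1.62 ± 0.43 (adjusted p = 0.0057) and Insig1 at 2.12 ± 0.66 (adjusted p = 0.015), which is 2 of 8 where 34.2% of all genes were called. For Fdft1 the single differences were 0.43 in EKO/hA-I mice (80.3, 54.0 and 71.7 on WD, against 50.0, 65.5 and 37.8 on chow) and -1.18 in EKO mice. For Insig1 they were 1.37 in EKO/hA-I mice and -0.74 in EKO mice, whose values were 88.6, 133 and 234 on WD, against 259, 201 and 252 on chow. Lss, which encodes the cyclase that makes lanosterol, reached 1.14 ± 0.45 with an adjusted p of 0.051. Leaving out any of 12 libraries kept the Fdft1 call. The Insig1 call was lost without EKO WD 22 weeks replicate 1, at 1.79 with an adjusted p of 0.057.

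The brown adipocyte markers differed in the same contrast, with 9 of 11 called higher. White adipocyte markers were called higher for 9 of 9, and macrophage markers lower for 1 of 12, and the part of both was not tested. The summed signal of the brown adipocyte markers in EKO mice at 22 weeks was 1565 to 5818 on WD and 4681 to 8652 on chow. With the brown adipocyte term, the difference of differences was 0.81 ± 0.51 for Fdft1 (adjusted p = 0.40) and 0.38 ± 0.68 for Insig1 (adjusted p = 0.79), and neither passed. Under that term the shared direction of the 8 genes was lost, with Hmgcs1 at -0.62 and Idi1 at -0.36, while Lss was at 0.25 and Cyp51 at 0.08.

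**Figure D2:**
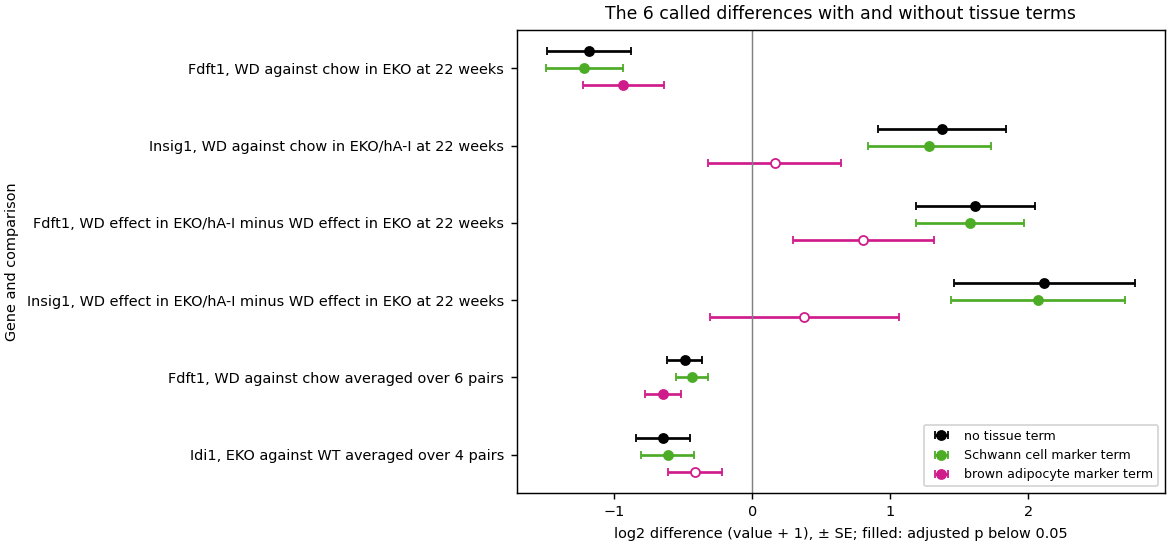
log2 difference (x axis, ± SE) of the 6 called values (y axis: gene and comparison) with no tissue term, with a Schwann cell marker term and with a brown adipocyte marker term. Filled points had an adjusted p below 0.05. The Insig1 difference of differences is 2.12 without a term and 0.38 with the brown adipocyte term.

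In WT mice at 22 weeks 0 of 8 genes passed by limma and 0 had an unadjusted p below 0.05, where 1.36% of all genes were called. The log2 differences of WD against chow ran from -0.29 for Cyp51 to 0.39 for Lss. At 6 weeks the WT groups stood further apart. For 7 of the 8 genes, WD and chow aortas did not overlap, against 23.5% of all genes, yet 0 of 8 passed by limma. An unadjusted p below 0.05 was reached by 2 genes, and 1.43% of all genes were called.

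Cyp51, which encodes lanosterol 14-alpha-demethylase, had 79.9, 50.1 and 45.3 in WT mice on WD at 6 weeks, against 22.0, 21.5 and 37.6 on chow. The log2 difference was 1.09 ± 0.35 (adjusted p = 0.11). Sqle, which encodes squalene epoxidase, had 34.6, 29.3 and 30.4 on WD, against 9.16, 15.8 and 27.8 on chow. Its log2 difference was 0.93 ± 0.48 (adjusted p = 0.32). Both genes were higher on WD in each aorta, and so were Hmgcs1, Lss, Idi1 and Insig1, with log2 differences of 0.50 to 0.78. Fdft1 lay the other way, with 45.4, 51.0 and 45.9 on WD, against 95.1, 100 and 90.3 on chow, a log2 difference of -0.99 ± 0.30 (adjusted p = 0.088). With the brown adipocyte term the Fdft1 value was -1.37 with an adjusted p of 0.018. The same term took Hmgcs1 to -0.04, Insig1 to -0.05, Lss to 0.09 and Idi1 to 0.20, and left Sqle at 0.88 and Cyp51 at 0.72, none of which passed. Of the 11 brown adipocyte markers, 1 was called higher in this comparison, and the summed signal was 7725 to 15780 on WD and 2620 to 6845 on chow.

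In EKO mice at 6 weeks 0 of 8 genes passed by limma, 1 had an unadjusted p below 0.05, and 0.0848% of all genes were called. The unadjusted value was that of Insig1, with 128, 446 and 226 on WD, against 180, 109 and 64.4 on chow, and these groups overlapped. In EKO/hA-I mice at 6 weeks 0 of 8 passed and 0 had an unadjusted p below 0.05, where 0.00706% of all genes were called.

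Averaged over the 6 diet pairs, Fdft1 was the 1 gene of 8 called, where 15.1% of all genes were called. It fell by 0.49 ± 0.13 on the log2 scale with WD (adjusted p = 0.011), and 5 of 6 pairs had a difference below 0. The exception was EKO/hA-I at 22 weeks. Leaving out any of 35 libraries kept the call, with values of -0.56 to -0.42. It also held with the brown adipocyte term at -0.65 (adjusted p at most 0.033 over 11 other alternatives). Over the 35 libraries, however, Fdft1 had r = 0.65 with white and 0.19 with brown adipocyte markers. No white adipocyte term was fitted, so the part of white adipocytes in this Fdft1 average was not tested. Insig1 averaged 0.49 ± 0.19 (adjusted p = 0.086) and Srebf2 -0.23 ± 0.09 (adjusted p = 0.084). Of 14 fatty acid synthesis genes, the desaturases Scd2 (0.92) and Scd1 (0.81) were called higher and Fads1 (-0.36) lower. Of 12 measured genes listed for sterol efflux, LXR response and cholesterol storage, 10 were called higher and 0 lower with WD, and their median was 0.44. They were led by Abcg1 at 1.56, Pltp at 0.79, Mylip at 0.48 and Soat1 at 0.59. Of these, Soat1 is a gene of cholesterol storage and not of efflux. Abcg1 encodes a cholesterol exporter that macrophages also express. Macrophage markers were called higher for 12 of 12 in this average, with a median of 1.05, and their part in these differences was not tested. Of 15 measured other sterol synthesis enzymes, 0 were called.

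**Figure D3:**
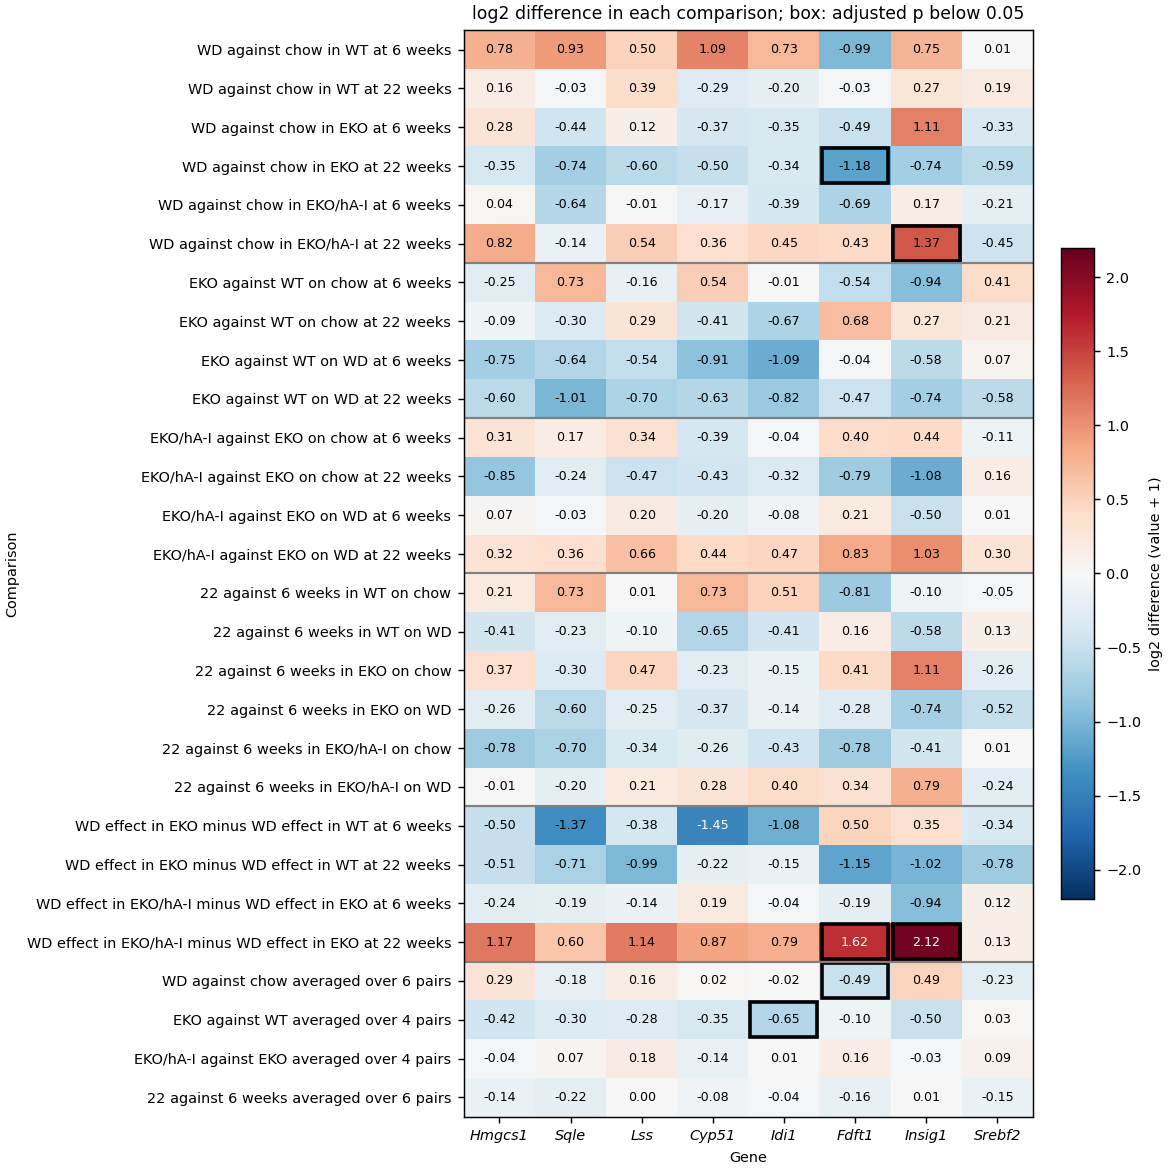
log2 difference of each gene (x axis) in each of 28 comparisons (y axis), with the group named first minus the group named second. Red is higher, blue lower, and a box marks an adjusted p below 0.05. Boxes appear for Fdft1 in 3 comparisons, for Insig1 in 2 and for Idi1 in 1.

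Loss of APOE was compared with WT on each diet and at each duration, and 0 of 8 genes passed by limma in any of the 4 pairs. On WD at 22 weeks 4 genes had an unadjusted p below 0.05, where 22% of all genes were called. On chow at 22 weeks it was 1 gene, where 15.3% were called. On WD at 6 weeks it was 2 genes, where 5.44% were called, and on chow at 6 weeks 0 genes, where 4.97% were called.

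On WD at 22 weeks all 8 genes had log2 differences below 0, with a median of -0.66. Srebf2 had 57.9, 63.2 and 65.9 in EKO mice, against 92.6, 95.0 and 92.1 in WT mice. The groups did not overlap, and the difference of -0.58 ± 0.22 had an adjusted p of 0.057. With a replicate block it was -0.58 with an adjusted p of 0.049, and with rescaling -0.59 with 0.045. The brown adipocyte term gave -0.63 with an adjusted p of 0.011. Under that term all 8 genes stayed below 0, from -0.999 for Sqle to -0.41 for Fdft1, and only Srebf2 passed. Sqle had 7.86, 16.2 and 16.1 in EKO mice, against 38.1, 24.3 and 20.4 in WT mice, a difference of -1.01 ± 0.48 (adjusted p = 0.14). Groups were apart for 3 of 8 genes, against 40.5% of all genes. Macrophage markers were called higher for 12 of 12 here, with sums of 10560 to 17970 in EKO mice and 401 to 892 in WT mice. Contractile smooth muscle markers had sums of 6219 to 10810 in EKO mice and 16880 to 27630 in WT mice. The part of macrophages and smooth muscle was not tested.

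Averaged over the 4 pairs, Idi1 was the 1 gene of 8 called, where 31.6% of all genes were called. It encodes isopentenyl diphosphate isomerase, which interconverts the isoprenoid building units. On WD at 22 weeks it had 17.8, 29.2 and 36.8 in EKO mice, against 69.4, 34.97 and 45.3 in WT mice. On chow at 22 weeks it had 33.3, 33.7 and 35.7 in EKO mice, against 44.2, 97.1 and 38.9 in WT mice. Those chow groups were apart, as for 1 of 8 genes and 25.3% of all genes, while the WD groups overlapped. On WD at 6 weeks the values were 23.1, 45.1 and 25.0 in EKO mice, against 75.4, 58.1 and 60.6 in WT mice. On chow at 6 weeks they were 66.1, 35.3 and 23.6 in EKO mice, against 29.7, 41.2 and 46.1 in WT mice. The WD groups at 6 weeks were apart, as for 3 of 8 genes and 24.9% of all genes, and the chow groups overlapped widely.

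Idi1 fell by 0.65 ± 0.20 on the log2 scale in EKO against WT mice (adjusted p = 0.014), with 4 of 4 pairs below 0. The call was kept without any of 24 libraries, at -0.74 to -0.55. With the brown adipocyte term it was -0.41 ± 0.20 (adjusted p = 0.11). In this comparison 4 of the 11 markers were called lower, with a summed signal of 1565 to 9519 in EKO mice and 2620 to 15780 in WT mice. Macrophage markers were called higher for 12 of 12, with a median of 2.03, and their part was not tested. Fibroblast markers had sums of 3881 to 12380 in EKO mice and 1995 to 6796 in WT mice, and their part was not tested either. Where 31.6% of all genes were called, 4 of 10 genes of sterol sensing and SREBP processing were called higher in EKO mice and 0 lower. Among them were Erlin1 at 0.41, Scap at 0.27 and Mbtps1 at 0.27. Erlin1 encodes an endoplasmic reticulum protein of sterol-regulated protein turnover, and Mbtps1 encodes the site-1 protease. Ebp, which encodes the sterol isomerase of a late step, was called higher at 0.34 ± 0.07 (adjusted p = 0.00073), and so was Dhdds at 0.19 (adjusted p = 0.0061). Dhdds belongs to the dolichol branch, and with the brown adipocyte term its adjusted p was 0.056. Of the 15 other enzymes 10 had differences below 0, and 0 were called lower.

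The apoA-I transgene was compared on the EKO background. On chow at 22 weeks 0 of 8 genes passed by limma, 3 had an unadjusted p below 0.05, and 28.6% of all genes were called. Groups were apart for 5 of 8 genes, against 45.0% of all genes, each time with EKO/hA-I lower. Fdft1 had 50.0, 65.5 and 37.8 in EKO/hA-I mice, against 74.7, 66.4 and 132 in EKO mice, a difference of -0.79 ± 0.30 (adjusted p = 0.052). Insig1 had 102, 131 and 101 in EKO/hA-I mice, against 259, 201 and 252 in EKO mice, a difference of -1.08 ± 0.46 (adjusted p = 0.079). Of the 15 other sterol synthesis enzymes 4 were called lower and 1 higher, namely Ebp at -0.68, Sc5d at -1.38, Acat2 at -1.25 and Mvd at -1.24, with Ggps1 higher at 0.59. Ggps1 makes geranylgeranyl diphosphate, off the sterol branch. Brown adipocyte markers were lower for 8 of 11, with a summed signal of 1863 to 2361 in EKO/hA-I mice and 4681 to 8652 in EKO mice. White adipocyte markers were lower for 9 of 9 and macrophage markers for 8 of 12, and their part was not tested. Y-linked transcripts differed too, with a group mean log2 of 5.50 in EKO/hA-I mice and 2.00 in EKO mice. A term marking libraries that lack Y-linked transcripts left 0 of 8 genes called. With the brown adipocyte term Ebp at -0.48 (adjusted p = 0.049) and Ggps1 at 0.55 (adjusted p = 0.038) kept their calls. Sc5d at -0.94 (adjusted p = 0.070), Mvd at -1.12 (adjusted p = 0.13) and Acat2 at -0.33 (adjusted p = 0.50) lost theirs. Fdft1 was at -0.38 and Insig1 at -0.20 under that term, and Hmgcs1 at 0.06 and Idi1 at 0.26 turned to the other side of 0.

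On WD at 22 weeks 0 of 8 genes passed by limma in EKO/hA-I against EKO mice, 3 had an unadjusted p below 0.05, and 18.8% of all genes were called. All 8 differences were above 0, from 0.30 for Srebf2 to 1.03 for Insig1. With the brown adipocyte term Hmgcs1 was at -0.56 and Idi1 at -0.10, and Insig1 was at 0.17 and Fdft1 at 0.43. Fdft1 had 80.3, 54.0 and 71.7 in EKO/hA-I mice, against 29.6, 44.9 and 40.4 in EKO mice, with a difference of 0.83 ± 0.30 (adjusted p = 0.057). Its groups did not overlap, which held for 1 of 8 genes, against 40.6% of all genes. Macrophage markers were called lower for 11 of 12, with sums of 1063 to 2653 in EKO/hA-I mice and 10560 to 17970 in EKO mice, while 4 of 11 brown and 2 of 9 white adipocyte markers were called higher. The part of macrophages and white adipocytes was not tested. The same EKO/hA-I and EKO libraries stand behind the diet comparisons at 22 weeks. Tm7sf2, a sterol reductase gene, was called higher at 0.66 ± 0.22 (adjusted p = 0.032). That call was made in 3 of 6 refits without a library and was lost with the brown adipocyte term, at 0.42 (adjusted p = 0.28). Dhdds, of the dolichol branch, was called lower at -0.36 (adjusted p = 0.016), and in 4 of 6 refits without a library. The brown adipocyte term took Dhdds to -0.18 (adjusted p = 0.25), and its call was lost. Mbtps2, which encodes the site-2 protease, was called lower at -0.55 ± 0.13 (adjusted p = 0.0041), with a mean of 15.7 ± 1.53 in EKO/hA-I mice and 23.5 ± 2.91 in EKO mice (SD, n = 3 each). On chow at 6 weeks 0 of 8 passed and 0 had an unadjusted p below 0.05, where 0.0777% of all genes were called. On WD at 6 weeks the counts were 0 and 0, where 0.0706% were called. The average over the 4 pairs called 0 of 8, with 0 at an unadjusted p below 0.05 and log2 differences of -0.14 to 0.18, where 8.32% of all genes were called.

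Between 22 and 6 weeks 0 of 8 genes passed by limma in any of 6 pairs or in their average. In the average 2.09% of all genes were called, 0 of the 8 had an unadjusted p below 0.05, and differences lay between -0.22 for Sqle and 0.01 for Insig1. In WT mice on chow 2 genes had an unadjusted p below 0.05, where 0.12% of all genes were called. In WT mice on WD it was 0 genes, where 6.68% were called. In EKO mice it was 1 gene on WD, Srebf2, where 13.4% were called, and 1 on chow, Insig1, where 27% were called. In EKO/hA-I mice it was 0 on WD, where 0.0706% were called, and 1 on chow, where 0.00706% were called. The differences between the diet responses of EKO and WT mice called 0 of 8 genes at 22 weeks, with 3 at an unadjusted p below 0.05 where 6.21% were called. All 8 were below 0, with a median of -0.745, beside 0.032 over all genes tested. With the brown adipocyte term they ran from -1.13 for Fdft1 to -0.12 for Idi1. At 6 weeks the differences between these diet responses called 0 of 8, with 1 at an unadjusted p below 0.05 where 0% were called. Between EKO/hA-I and EKO mice at 6 weeks they called 0 of 8, with 0 at an unadjusted p below 0.05 where 0% were called.

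The order of the group means was similar for 5 genes at its top. Hmgcs1, Lss, Cyp51, Idi1 and Insig1 were all highest in WT mice on WD at 6 weeks, at 329 ± 83.9, 48.8 ± 6.48, 58.4 ± 18.8, 64.7 ± 9.37 and 353 ± 20.3 (SD, n = 3). EKO mice on WD at 22 weeks had the lowest mean of Sqle at 13.4 ± 4.78, Lss at 29.6 ± 12.6, Cyp51 at 23.3 ± 6.37, Fdft1 at 38.3 ± 7.85 and Srebf2 at 62.3 ± 4.11. Hmgcs1, Idi1 and Insig1 were lowest in EKO/hA-I mice on chow at 22 weeks, at 113 ± 9.71, 27.7 ± 6.28 and 111 ± 17.2. Fdft1 was highest in WT mice on chow at 6 weeks, at 95.2 ± 4.85, and Srebf2 in EKO mice on chow at 6 weeks, at 114 ± 22.4. For none of the 8 genes did any of the 11 pairs of neighbouring groups in that order have values that did not overlap.

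Over the 35 libraries 7 of the 8 genes varied together to different degrees, as a description across libraries that share groups and normalisation. Cyp51 and Idi1 were the closest pair (Pearson r = 0.86, Spearman rho = 0.84), followed by Lss and Insig1 (r = 0.82, rho = 0.86). Against the mean of the other 7 genes, each scaled to the same spread, r was 0.85 for Idi1, 0.82 for Lss, 0.78 for Sqle, 0.76 for Cyp51, 0.71 for Hmgcs1 and 0.69 for Insig1. Fdft1 stood lower at 0.36, and Srebf2 at 0.10 did not follow the rest. Srebf2 also had the smallest spread, 2.40-fold between its highest and lowest library, against 9.05-fold for Sqle.

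Of 8902 other genes with a mean log2 level of at least 4, the 10 most like the mean of the 8 included further enzymes of the same path. Fdps, which makes farnesyl diphosphate, had r = 0.93, and Nsdhl, a demethylation enzyme, 0.84. Also among the 10 were Diablo, Cyb5b, Tmx2, Abcb10, Nipsnap1, Klhl12 and Tecr, at 0.78 to 0.75. With the group means taken out, the 10 included the sterol enzymes Fdps at 0.96, Sc5d at 0.88, Nsdhl at 0.88 and Dhcr7 at 0.83. The genes of sterol sensing and SREBP processing had a median r of -0.12, and all 8902 genes one of -0.014.

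Markers of neighbouring tissue varied along with several of the genes. Over 35 libraries the mean of the brown adipocyte markers had r = 0.79 with Insig1 and 0.76 with Hmgcs1, but -0.48 with Srebf2. Fdft1 had r = 0.65 with white adipocyte markers, and Srebf2 had r = 0.65 with contractile smooth muscle markers. With macrophage markers all 8 genes had r below 0, from -0.48 for Idi1 to -0.14 for Insig1. With fibroblast markers r was -0.69 for Idi1, -0.64 for Cyp51, -0.63 for Hmgcs1 and -0.61 for Insig1. It was above 0 only for Srebf2, at 0.13. Sqle had r = 0.54 with sympathetic neuron markers, and its highest values, 71.1 (EKO chow 6 weeks replicate 1) and 54.5 (replicate 2 of EKO/hA-I on chow at 6 weeks), were in the libraries with the highest mean of those markers, 7.56 and 7.62. All other libraries had Sqle values between 7.86 and 38.1. Without those 2 libraries, the Sqle difference of EKO against WT mice on chow at 6 weeks was 0.06 in place of 0.73, and neither value passed.

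**Figure D4:**
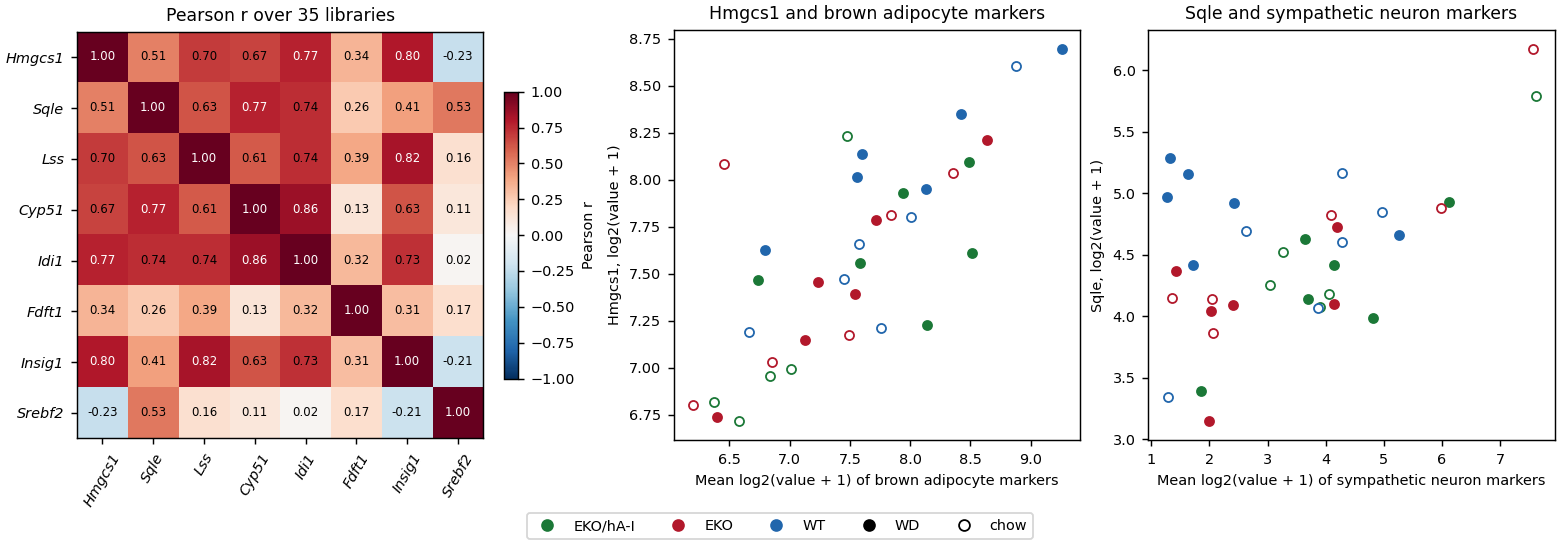
Left, Pearson r between the 8 genes over 35 libraries (both axes: gene). Middle and right, log2(value + 1) of Hmgcs1 and of Sqle (y axes) against the mean log2(value + 1) of brown adipocyte and of sympathetic neuron markers (x axes), with 1 point per aorta. EKO/hA-I is green, EKO red and WT blue, with WD filled and chow open. The Srebf2 row is pale except for Sqle, and the highest Sqle points lie at the far right of their panel.

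Other genes of the pathway were counted in the diet comparisons at 22 weeks. In EKO/hA-I mice 3 of 15 other enzymes were called higher on WD and 0 lower, where 38.2% of all genes were called. They were Acat2 at 1.04, Ebp at 0.37 and Nsdhl at 0.95. Acat2 had a mean of 165 ± 35.7 on WD and 79.4 ± 11.5 on chow (SD, n = 3 each), and with the brown adipocyte term its difference was -0.24 with an adjusted p of 0.75. The same term took Nsdhl to 0.0011 and Ebp to 0.085, and both calls were lost. With 1 library left out, Acat2 was called in 2 of 6 refits and Nsdhl and Ebp in 1 of 6 each. In EKO mice 0 were called higher and 1 lower, where 18.7% of all genes were called. The enzyme called was Tm7sf2 at -0.67 ± 0.22 (adjusted p = 0.031). It was called in 3 of 6 refits without a library, and with the brown adipocyte term it was at -0.52 (adjusted p = 0.085). Of the 10 sensing and processing genes in EKO mice 2 were called higher and 0 lower, beside the same 18.7% of all genes. They were Mbtps2 at 0.63 ± 0.13 (adjusted p = 0.0012) and Erlin1 at 0.62 ± 0.18 (adjusted p = 0.014). Erlin1 was called in 4 of 6 refits without a library. Mbtps2 had a mean of 23.5 ± 2.91 on WD and 14.8 ± 0.778 on chow (SD, n = 3 each). Its call was kept in 6 of 6 refits without a library and with the brown adipocyte term at 0.67. Macrophage markers had sums of 10560 to 17970 on WD and 1706 to 2593 on chow in these EKO mice. Their part in the Mbtps2 and Erlin1 differences was not tested.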

How the data were processed

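Aortic RNA of 35 libraries in 12 groups was measured by RNA sequencing. The authors deposited 1 table of normalised signal per gene and library, and the normalisation is not given in the sources used here. The submitters' processing notes name Bowtie 0.12.2, Bowtie2, RSEM and the builds mm8 and mm9, without role or order. Of the values at or below 1.5, 71.5 to 82.1% per library lay within 0.02 reads of a whole read, so the signal was not treated as counts, and depth is an estimate from the step between low values. Reads shared between near-identical gene copies may be split between them.

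Of the genes, 14157 reached a value of 1 in 3 or more libraries and were tested, and 17 were removed. The test was limma 3.58.1 in R 4.3.3 (robust, intensity trend) on log2(value + 1), with all groups in 1 fit with 23 residual degrees of freedom. A fold change on this scale understates that of low genes. Adjusted p is Benjamini-Hochberg within each of 28 comparisons, with a threshold of 0.05, and the fit was tested on simulated data. The 8 genes, the gene and marker lists, the comparisons and the alternatives were chosen with earlier results of these data known. Named were the 8 genes, up to 4 genes of smallest adjusted p per list and comparison described, the 10 genes most like the mean of the 8, Apoe and tissue markers, and some genes this rule selects are not reported here. Replicate numbers of the titles were checked as pairs. No label gives a pairing. For 22 against 6 weeks, the correlation of deviations from the group means was above 0.1 in every pair in 3 of the comparisons. These were WT mice on WD (3 pairs, 0.13 to 0.34), EKO mice on WD (3 pairs, 0.12 to 0.44) and EKO/hA-I mice on chow (2 pairs, 0.28 and 0.35).

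Alternatives were pseudocounts of 0.1 and 5, no filter, a replicate block, each library left out, a fit without the groups not compared, median-ratio rescaling, limma without trend and robust variance, tissue marker terms, a term marking libraries that lack Y-linked transcripts, and the omission of 2 libraries with high neuron markers. RefSeq promoter windows were searched for exact motif letters on both strands.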

Additional observations from a re-analysis of the deposited data

Results flagged for a closer look

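The difference between the WD responses of EKO/hA-I and EKO mice at 22 weeks was itself tested. It passed for 2 of the 8 genes, where 34.2% of all genes were called. For Fdft1 it was 1.62 (adjusted p = 0.0057), from 0.43 in EKO/hA-I mice and -1.18 in EKO mice. For Insig1 it was 2.12 (adjusted p = 0.015), from 1.37 in EKO/hA-I mice and -0.74 in EKO mice. Brown adipocyte markers differed in the same contrast for 9 of 11 genes, and with their term both calls were lost, at 0.81 for Fdft1 and 0.38 for Insig1.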

How the results depend on the processing

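Groups of 2 or 3 libraries limit what can pass, and most counts of the 8 genes called are 0 or 1, so 1 gene moves a count. No count of the 28 comparisons changed with pseudocounts of 0.1 or 5, without the filter, without trend and robust variance or with the Y-linked term. Where a value moved, the cause was not tested. Diet comparisons (WD over chow) are named by genotype and duration, APOE comparisons (EKO over WT) and transgene comparisons (EKO/hA-I over EKO) by diet and duration, and diet interactions by the genotypes whose WD effects are subtracted. The replicate block, which pairs libraries by the number in their titles, changed 1 of 28 counts: the APOE comparison on 22-week WD became 1 (Srebf2, -0.58, adjusted p = 0.049), and it changed no other call. Same-numbered libraries in the transgene comparison on 6-week chow had correlations of -0.74 and -0.64 in 2 pairs. The EKO/hA-I group there held 2 libraries, whose deviations from their mean mirror each other. The libraries of highest neuron markers in these groups were EKO replicate 1 and EKO/hA-I replicate 2, which differ in number. Rescaling gave 2 for the EKO diet comparison at 22 weeks and 1 for the APOE comparison on 22-week WD, both through Srebf2.

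The brown adipocyte term gave 0 for the EKO/hA-I diet comparison at 22 weeks, the EKO/hA-I minus EKO interaction at 22 weeks and the APOE average. It gave 2 for the EKO diet comparison at 22 weeks. It gave 1 for the WT diet comparison at 6 weeks, the APOE comparison on 22-week WD, the duration comparisons of WT on chow and of EKO on WD, and the EKO minus WT interaction at 22 weeks. With brown adipocyte, Schwann cell and skeletal muscle terms together these counts were the same, except that the APOE average and the duration comparison of WT on chow kept their 1 and 0. With these 3 terms Insig1 reversed, to -0.52 in the EKO/hA-I diet comparison at 22 weeks and -0.37 in the EKO/hA-I minus EKO interaction. Other enzymes reversed there too, Acat2 to -0.66 and -0.46, Nsdhl to -0.62 and Ebp to -0.054, and Acat2 was at -0.24 with the brown adipocyte term alone.

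The Schwann cell term gave 2 for the EKO diet comparison at 22 weeks, the APOE comparison on 22-week WD, the transgene comparison on 22-week chow and the diet average, and 1 for the EKO minus WT interaction at 22 weeks. Lss joined Fdft1 and Insig1 in the EKO/hA-I minus EKO interaction with the Schwann cell term (1.10, adjusted p = 0.040) and without the 2 neuron-rich libraries (1.14, adjusted p = 0.045), for a count of 3. Without the 2 libraries of highest neuron markers the diet average gave 3, the APOE average 2 and the duration comparison of EKO on chow 2. The same omission gave 1 for the WT diet comparison at 6 weeks, the APOE comparisons on 6-week chow and 22-week WD, the transgene comparisons on 22-week chow and 22-week WD, and the EKO minus WT interaction at 22 weeks. A fit of only the groups compared gave 2 for the EKO and EKO/hA-I diet comparisons at 22 weeks and the transgene comparison on 22-week chow, and 1 for the WT diet comparison at 6 weeks and the APOE and transgene comparisons on 22-week WD.

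With 1 library left out, counts ranged from 0 to 1 for the EKO diet comparison at 22 weeks, the APOE comparisons on 6-week chow and 6-week WD, the transgene comparisons on 22-week chow and 22-week WD and the EKO minus WT interaction at 22 weeks. They ranged from 0 to 2 for the EKO/hA-I diet comparison at 22 weeks and the duration comparison of EKO on chow. They ranged from 1 to 3 for the EKO/hA-I minus EKO interaction at 22 weeks and for the diet and APOE averages. Leaving out EKO chow 6 weeks replicate 1 alone gave calls for Fdft1 in the APOE comparison on 6-week chow (-0.99, adjusted p = 0.032) and for Fdft1 (0.87) and Insig1 (1.48) in the duration comparison of EKO on chow.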
